A study of Mus musculus with 15 samples.

Results

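Small RNA libraries of mouse pancreatic acini treated with caerulein at 100 nM were compared directly with libraries of acini treated with TLC-S at 250 uM. Each group held 3 libraries, so the comparison used 6 of the 15 libraries of the series, chosen by the treatment named in the sample titles. All acini came from C57BL/6 mice of 7 to 8 weeks, with no transgene or deletion named. The other 9 libraries were untreated controls, caerulein at 100 pM and TLC-S at 62.5 uM, 3 of each. The submitters call the 100 nM caerulein dose pathological and the 100 pM dose physiological and give no such grade for TLC-S. Doses of the 2 agents are therefore set side by side and are not matched, and the length of treatment is not given in the sources used here. Per the labels, the libraries were made from pooled total RNA of independent acinar preparations, and how the pools relate to the replicate numbers is not stated. Spread between libraries, the basis of every p-value here, may therefore be technical rather than between animals.

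Caerulein is a peptide that acts on the cholecystokinin receptor of the acinar cell, and high doses drive prolonged calcium signals and the activation of digestive enzymes inside the cell. TLC-S is a sulfated, taurine-conjugated bile acid that enters acinar cells and also raises their calcium. It stands for the bile exposure seen in gallstone pancreatitis. miRNAs are short RNAs that repress messenger RNAs paired with their seed, so a shift in a miRNA's level can change many proteins at once. Each hairpin precursor yields a 5p and a 3p strand, of which usually 1 is abundant.

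Shown first are 6 of the 8 miRNAs with the smallest p in the comparison of the 2 treatments, those with a matched RefSeq sequence. They are mature sequences (GRCm38.p6), written 5′ to 3′ with the seed (bases 2 to 8) in capitals.
mmu-miR-3968: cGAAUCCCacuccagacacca
mmu-miR-106b-3p: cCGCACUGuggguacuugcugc
mmu-miR-29a-5p: aCUGAUUUcuuuugguguucag
mmu-miR-450a-5p: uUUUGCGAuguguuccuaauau
mmu-miR-361-5p: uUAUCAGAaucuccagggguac
mmu-miR-411-5p: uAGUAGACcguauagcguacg
The next 3 are miRNAs of named cell types, miR-126a-3p of endothelium, miR-223-3p of myeloid cells and miR-216b-5p of acinar cells.
mmu-miR-126a-3p: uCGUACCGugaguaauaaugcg
mmu-miR-223-3p: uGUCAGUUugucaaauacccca
mmu-miR-216b-5p: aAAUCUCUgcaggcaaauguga
Both strands of the miR-21a hairpin are shown because the title of the series names the 3p strand.
mmu-miR-21a-5p: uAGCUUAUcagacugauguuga
mmu-miR-21a-3p: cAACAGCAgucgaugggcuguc

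Totals per library ran from 535473 counts (caerulein 100 nM, replicate 2) to 5087728 (caerulein 100 nM, replicate 3), and from 1172899 to 3067507 in the TLC-S 250 uM group. The table lists 1915 mature miRNAs, 867 of them with at least 1 count, and 351 passed the filter on low counts. Levels are given as CPM, counts scaled to a common library size, after TMM scaling, which evens out differences in composition between libraries. The log2 difference is always caerulein 100 nM minus TLC-S 250 uM, from edgeR's quasi-likelihood model, so a positive value means a higher level with caerulein. The deposited counts of 2 libraries of the same group always differed by far more than sampling noise, with a chi-square of 54.9 to 585 per degree of freedom.

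No difference of a single miRNA between the 2 stimuli passed the test. The smallest p belonged to miR-3968, at 2.17-fold the TLC-S level with caerulein. Next came miR-106b-3p and miR-29a-5p with positive differences and miR-126a-5p and miR-361-5p, among others, with negative ones. After Benjamini-Hochberg adjustment in edgeR, 0 of 351 miRNAs (0%) passed the threshold of 0.05, and the smallest adjusted p was 0.188, for miR-3968. At an unadjusted p under 0.05 there were 8 miRNAs (2.28% of those tested), 3 higher and 5 lower with caerulein. DESeq2, run on the same counts, called 1 miRNA, which was miR-3968 with an adjusted p of 0.0244. Differences lay slightly more often above 0 (201 miRNAs, 57.3%) than below it (150 miRNAs), with a median of 0.06. For 19 miRNAs (5.41%) the 3 caerulein libraries all lay on one side of the 3 TLC-S libraries, 12 higher (3.42%) and 7 lower (1.99%).

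How tightly a difference was bounded followed the level. Among the 55 miRNAs with a mean of at least 1000 CPM, which include the acinar, epithelial and let-7 miRNAs that dominate these cells, the log2 differences ran from -0.52 to 0.49. Of these 55, 52 had a 95% interval wholly between -1 and 1, that is, less than a doubling or halving in either direction. Between 100 and 1000 CPM this held for 75 of 89 miRNAs, and between 10 and 100 CPM for 51 of 131. It held for 0 of the 76 miRNAs under 10 CPM, whose median interval reached 1.44 to either side. Over all 351 miRNAs the median reach was 0.73, and 178 miRNAs (50.7%) were bounded within a doubling. Of the 14 miRNAs whose estimate lay beyond 1 in size, 11 were under 10 CPM. The other 3 were miR-3968, miR-411-5p and miR-30d-3p.

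**Figure D1:**
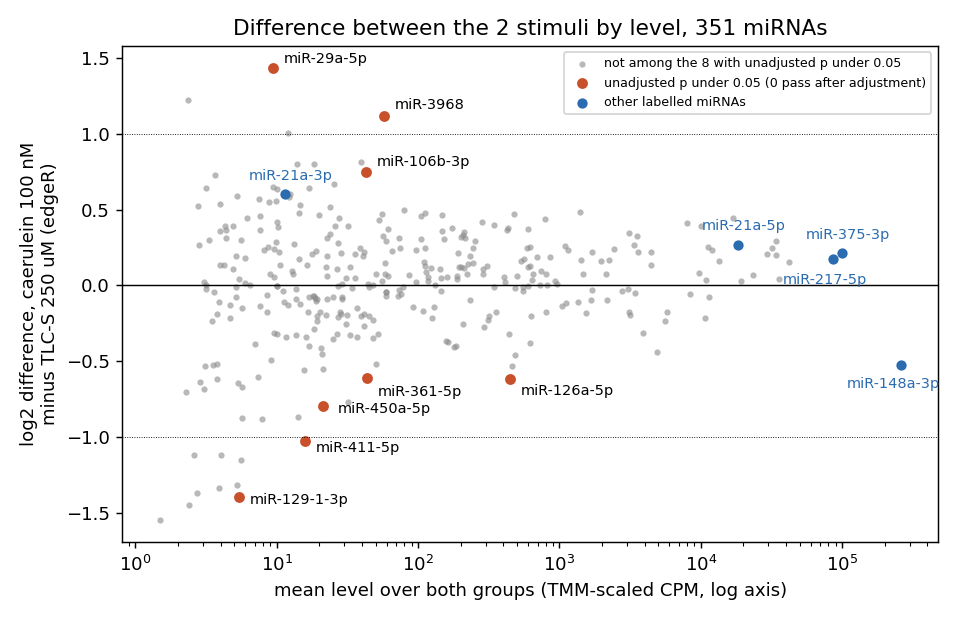
The log2 difference of caerulein 100 nM and TLC-S 250 uM (vertical axis) is plotted for each of 351 miRNAs against its mean TMM-scaled CPM over both groups (log axis); orange points have an unadjusted p under 0.05 and dotted lines mark a doubling or halving. The spread narrows toward the right, where the 55 miRNAs at 1000 CPM or more lie between -0.52 (miR-148a-3p) and 0.49.

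miR-3968 had the smallest p of all. Its hairpin, Mir3968, lies on the minus strand of chromosome 11 at 115447961 to 115448060 (GRCm38), opposite an exon of Trim80 in GENCODE M21. It stood at 75.4, 66.5 and 92.5 CPM in the caerulein libraries and at 42.5, 35.6 and 31.5 CPM in the TLC-S libraries. Every caerulein library was above every TLC-S library. The untreated controls held 40.7, 41.5 and 33.0 CPM, so the TLC-S libraries lay in or near the control range and the caerulein libraries above it. Group means were 78.1 ± 13.2 with caerulein and 36.5 ± 5.57 with TLC-S (SD, n = 3 each). That is a 2.17-fold higher level with caerulein (log2 difference 1.12, SE 0.28, 95% interval 0.54 to 1.70). The adjusted p was 0.188 in edgeR, and it ranged from 0.0244 to 0.997 over 15 alternatives of processing and left-out libraries, DESeq2 being the only one that called it. Leaving out any 1 of the 6 libraries kept the log2 difference between 0.95 and 1.20. The values rest on 38 to 491 counts with caerulein and 54 to 87 with TLC-S.

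Its high registry number puts miR-3968 in a list of 8 tested late-numbered miRNAs whose status as true miRNAs is often doubted. The other 7 ran from -0.62 to 0.21, and the list as a whole had 4 higher and 4 lower members (median 0.06, or -0.16 without caerulein replicate 3). The sequence of miR-3968 ends in CCA, the letters that close mature transfer RNAs. Among the 312 tested miRNAs with a sequence, 5 (1.60%) end in CCA, on the printed strand only, miR-3968 being 1 of them. Those 5 were 2 higher and 3 lower with a median of -0.18. Where the reads of miR-3968 come from was not tested. This feature was looked for after the values of miR-3968 had been seen.

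**Figure D2:**
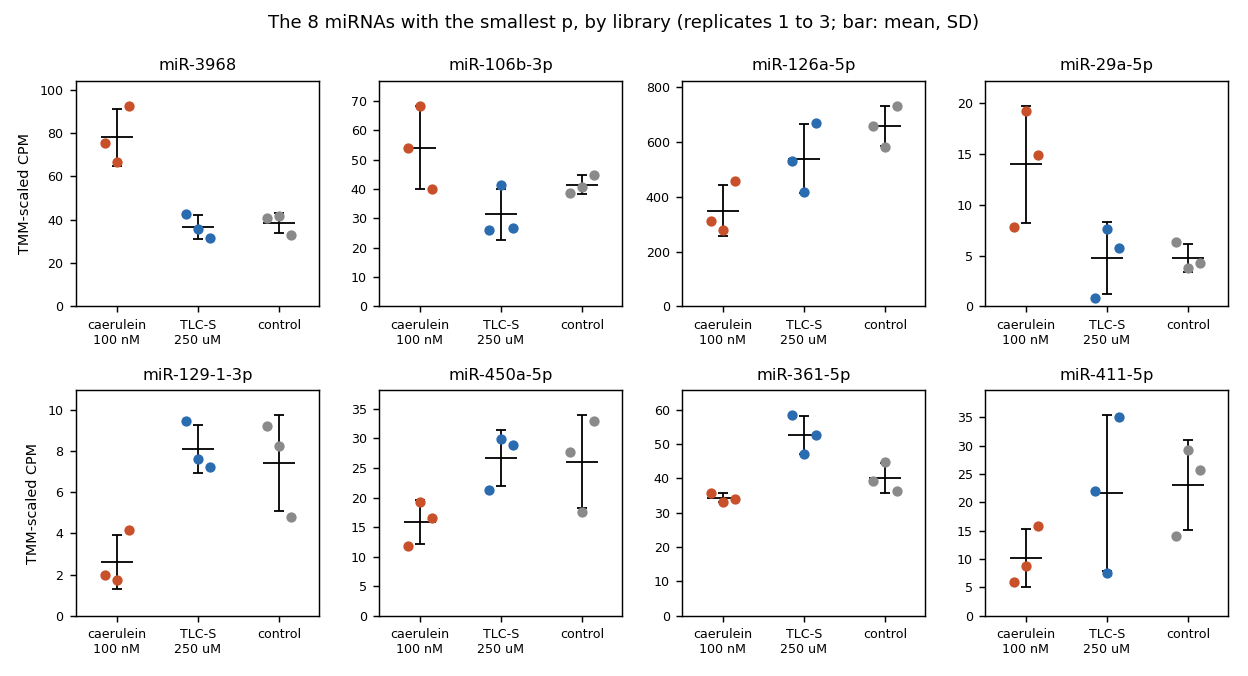
TMM-scaled CPM (vertical axis, starting at 0) of the 8 miRNAs with the smallest p in each library of caerulein 100 nM, TLC-S 250 uM and control; points are replicates 1 to 3 and bars the mean and SD. For miR-3968 the 3 caerulein libraries lie at 66.5 to 92.5, above the 6 others, while miR-106b-3p, miR-126a-5p and miR-411-5p overlap between the treatments.

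The other higher miRNAs among the 8 were both the minor strands of their hairpins. miR-106b-3p is made from an intron of the replication gene Mcm7 (chromosome 5, 138165737 to 138165818, minus strand), within a cluster with miR-93 and miR-25. It measured 53.9, 68.2 and 39.9 CPM with caerulein against 26.0, 41.3 and 26.8 with TLC-S. The lowest caerulein library fell just under the highest TLC-S library, and the controls (38.8, 40.8 and 44.9) sat between the group means. The log2 difference was 0.75 (SE 0.33, edgeR unadjusted p = 0.0297, adjusted p = 1.00). Its partner on the hairpin, miR-106b-5p, gave 0.46 (SE 0.30), while the cluster's miR-93-5p gave 0.13 and miR-25-3p 0.00. The cluster's miR-93-3p went the other way at -0.87 (SE 0.62), with means of 3.63 CPM with caerulein and 7.79 with TLC-S.

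miR-29a-5p comes from Mir29a on chromosome 6 (31062660 to 31062747, minus strand), with no other gene annotated over it. Its major strand, miR-29a-3p, is known for repressing collagen transcripts. The 5p strand stood at 7.84, 19.2 and 14.9 CPM with caerulein and at 0.79, 7.63 and 5.79 with TLC-S. Groups did not overlap, but only by a narrow margin, and the lowest value is a single count in the library. With a log2 difference of 1.43 (SE 0.64) it had the largest positive value of the 351, an edgeR unadjusted p of 0.0356 and an adjusted p of 1.00. Without TLC-S replicate 1 the estimate was 0.97. The major strand, at 8227 ± 913 CPM with caerulein and 8541 ± 1505 with TLC-S, gave -0.05 (SE 0.21), and the nearby miR-29b-3p gave 0.37 (SE 0.36).

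Of the 5 lower miRNAs, miR-126a-5p was the most abundant. It is the 5p strand of an endothelial hairpin inside Egfl7, a gene of blood vessel formation (chromosome 2, 26591357 to 26591429, plus strand). Levels were 314, 279.9 and 456 CPM with caerulein, and 532, 416 and 668 with TLC-S. Controls were higher still at 660.4, 584 and 730.2, above all caerulein libraries and overlapping the TLC-S libraries. The highest caerulein library lay above the lowest TLC-S library, so the groups overlapped. Its log2 difference was -0.62 (SE 0.28, interval -1.19 to -0.04, edgeR unadjusted p = 0.0356, adjusted p = 1.00). The much more abundant miR-126a-3p leaned the same way, at -0.44 (SE 0.28, interval -1.02 to 0.14).

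miR-361-5p, from an intron of the X-linked gene Chm (chromosome X, 113074824 to 113074893, minus strand), had the narrowest spread of the 8 within the caerulein group. It read 35.8, 33.2 and 33.9 CPM there and 58.3, 47.1 and 52.5 with TLC-S. All TLC-S libraries were higher, and they also lay above the controls (39.2, 44.9 and 36.3). The difference was -0.61 (SE 0.29, edgeR unadjusted p = 0.0443), and leaving out any 1 library moved it only between -0.69 and -0.58. Its 3p strand gave -0.10 (SE 0.33).

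miR-450a-5p comes from a pair of neighbouring hairpins on the X chromosome, Mir450-1 (53048154 to 53048244) and Mir450-2 (53048299 to 53048367), in the cluster that holds miR-322 and miR-503. It measured 11.8, 19.2 and 16.6 CPM with caerulein and 21.3, 29.9 and 29.0 with TLC-S. The groups did not overlap, and the controls (27.6, 17.6 and 33.0) overlapped with each of them. The difference was -0.79 (SE 0.37, edgeR unadjusted p = 0.0395). Of 5 other tested strands of that cluster, miR-322-5p was at -0.87 (SE 0.56), miR-542-3p at -0.13 and miR-322-3p at -0.01, with miR-450b-5p at 0.37 and miR-503-5p at 0.52, so its strands lay on both sides of 0.

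The remaining members of the 8 had few counts. miR-129-1-3p, a strand of a neuronal and endocrine miRNA (Mir129-1, chromosome 6, 29022619 to 29022691, plus strand), read 1.96, 1.75 and 4.14 CPM with caerulein and 9.45, 7.63 and 7.24 with TLC-S. These rest on 1 to 22 counts in the caerulein libraries, and the controls (9.21, 8.23 and 4.78) lay mostly with TLC-S. The difference was -1.39 (SE 0.63), and it ran from -2.07 to -1.15 as single libraries were left out. miR-411-5p, of the imprinted Dlk1-Dio3 region on chromosome 12 (109710175 to 109710256, plus strand), read 5.88, 8.75 and 15.8 CPM with caerulein and 22.1, 7.63 and 35.1 with TLC-S. Here the groups overlapped. The estimate of -1.03 (SE 0.49) depended on single libraries, being -1.71 without caerulein replicate 3 and -0.39 without TLC-S replicate 3.

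Ranks 9 to 20 by p held 8 miRNAs higher and 4 lower with caerulein, all with an unadjusted p above 0.05. Among abundant miRNAs, the acinar miR-216b-5p read 8282, 9385 and 9747 CPM with caerulein and 6426, 7550 and 6615 with TLC-S. The groups did not overlap and the difference was 0.41 (SE 0.23). Controls (7799, 10772 and 7072) spanned all caerulein libraries, while TLC-S replicates 1 and 3 lay below every control. miR-574-3p (276, 304 and 397 against 255, 266 and 211 CPM) and miR-193a-3p (158, 117 and 115 against 104, 100 and 77.1 CPM) were also higher in every caerulein library, at 0.42 and 0.48. miR-101a-3p read 17233, 17993 and 23136 CPM against 10757, 19775 and 12411, which overlap, with a difference of 0.44 (SE 0.24). miR-425-5p gave 0.46, miR-190a-5p 0.81, miR-330-5p 0.67 and miR-3081-3p 0.80, each with groups that overlap. On the lower side, the imprinted miR-434-3p, made opposite an exon of Rtl1, read 17.6, 31.5 and 23.2 CPM with caerulein and 33.9, 40.1 and 44.5 with TLC-S, a difference of -0.77 (SE 0.40). miR-221-5p, a minor strand of a hairpin linked to proliferation, was also lower in every caerulein library, at 1.47 to 5.84 CPM against 7.63 to 8.66, with controls from 3.37 to 14.3 overlapping each group.

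Both strands of miR-21a, a miRNA induced in inflamed and growing tissue, were examined because the series is built around it. miR-21a-3p stood at 2.94, 12.2 and 25.6 CPM with caerulein and 4.72, 10.8 and 11.9 with TLC-S. The groups overlapped fully, and most of the spread lay within the caerulein group. Both groups lay mostly above the control libraries (1.45, 2.62 and 5.26 CPM), which the 2 treatments share. The difference between the treatments was 0.60 (SE 0.65, interval -0.74 to 1.94, edgeR adjusted p = 1.00). It turned to -0.61 without caerulein replicate 3. miR-21a-5p measured 15556, 18854 and 25388 CPM with caerulein and 14117, 16000 and 19556 with TLC-S, also overlapping, with a difference of 0.27 (SE 0.26, interval -0.27 to 0.81).

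The 5 most abundant miRNAs took more than 50% of all counts under both stimuli. Together, miR-148a-3p, miR-375-3p, miR-217-5p, miR-200a-3p and let-7i-5p took 53.2%, 50.3% and 52.2% of counts with caerulein and 54.6%, 52.0% and 63.6% with TLC-S. Means were 51.9% ± 1.45 and 56.7% ± 6.08 (SD, n = 3 each; exact two-sided permutation test p = 0.3, where 0.1 is the smallest that 3 against 3 allows). The high TLC-S value was replicate 3, in which miR-148a-3p, an acinar miRNA, took 42.7% of counts against 20.2% to 27.8% in the other 5 libraries. The log2 difference of miR-148a-3p was -0.52 (SE 0.40), and -0.02 without that library. miR-375-3p, the main miRNA of islet cells and also abundant in these acini, read 104935, 103345 and 114887 CPM with caerulein and 100712, 100682 and 77434 with TLC-S. Its groups did not overlap, yet the difference was small, at 0.21 (interval -0.24 to 0.67).

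Lists of miRNAs by cell type were used to describe which kinds of cells the 2 groups of libraries held. In bulk RNA, fewer cells of a type and less RNA per cell cannot be told apart. Over all lists together, 0 members passed the adjusted threshold, beside the 0% of all miRNAs. The acinar list, both strands of miR-148a and of the 3 hairpins of the miR-216 and miR-217 cluster, was abundant in every library, with sums of 315915 to 345166 CPM with caerulein and 301995 to 581398 with TLC-S. Of its 8 members, 6 were higher and 2 lower, with a median of 0.12. That median was 0.005 without TLC-S replicate 1, 0.078 without caerulein replicate 2 and 0.19 without TLC-S replicate 2. The epithelial miR-200 family had 6 of 7 members higher (median 0.15), including miR-200b-3p at 0.20 and miR-200a-3p at 0.15, but 4 of 7 without caerulein replicate 1 or TLC-S replicate 2. All 3 members of the miR-183 cluster were higher (median 0.22), and 2 of 3 without caerulein replicate 1, caerulein replicate 3 or TLC-S replicate 2, with RLE scaling or with only the groups compared. The islet list was even (4 and 4), with a median of 0.02 that ranged from -0.03 without caerulein replicate 1 to 0.13 without TLC-S replicate 2 over 10 alternative settings of scaling, groups fitted and left-out libraries. The 6 ductal miRNAs had a median of -0.07, which turned to 0.06 without caerulein replicate 3.

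Markers of cells outside the epithelium had medians below 0 at the high doses. The stellate and mesenchymal list counts both strands of miR-143, miR-145a, miR-199a and miR-214. In the stellate and mesenchymal list 9 of 10 members were lower with caerulein, with a median of -0.20, against a median of 0.06 over all miRNAs tested. Without TLC-S replicate 3 this was 6 of 10 with a median of -0.03, and without caerulein replicate 1 it was 7 of 10 with -0.08. The median was -0.39 without TLC-S replicate 1 and -0.35 without caerulein replicate 3. Among them miR-143-3p read 9989 CPM on average with caerulein and 11584 with TLC-S, and miR-10b-5p 3483 and 4320. Sums of the list overlapped widely (11874 to 19265 CPM with caerulein, 11851 to 23374 with TLC-S). Both strands of the endothelial miR-126a were lower, as given above, with sums of 3401 to 6247 and 4454 to 7896 CPM, and 6721 to 8514 in the controls. That direction held for both strands in each of the 10 settings, with medians from -0.84 (without caerulein replicate 3) to -0.28 (without TLC-S replicate 3). All 5 tested leukocyte miRNAs were lower, with a median of -0.52, though their sum was only 59.3 to 102 CPM with caerulein and 86.5 to 138 with TLC-S.

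Within the leukocyte list, miR-223-3p, which marks neutrophils and other myeloid cells, read 0.98, 1.75 and 3.20 CPM with caerulein and 7.09, 4.45 and 5.79 with TLC-S. Groups did not overlap, and the values rest on 1 to 17 counts. The difference was -1.34 (SE 0.66, edgeR unadjusted p = 0.0541). The more abundant miR-150-5p of lymphocytes gave -0.52 (interval -1.20 to 0.17), and the list median ranged from -0.82 without caerulein replicate 3 to -0.10 without caerulein replicate 1. It was -0.24 without TLC-S replicate 1. Without caerulein replicate 1, 3 of the 5 were lower. Without TLC-S replicate 3, 4 were. A fit of only the groups compared tested 3 of the 5, all lower. Erythrocyte miRNAs had a median of -0.13 (-0.30 without TLC-S replicate 1, -0.04 without TLC-S replicate 3), with miR-451a at -0.01. In the liver and muscle list, miR-208b-3p was at 0 in all 6 libraries, and miR-133a-3p stood out through TLC-S replicate 2 alone (17.8 CPM, against 0 to 4.33 in the other 5), its difference going from -1.32 to -0.11 without that library and the list median from -0.22 to 0.01. The part that these other cells played in the differences of single miRNAs was not tested.

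**Figure D3:**
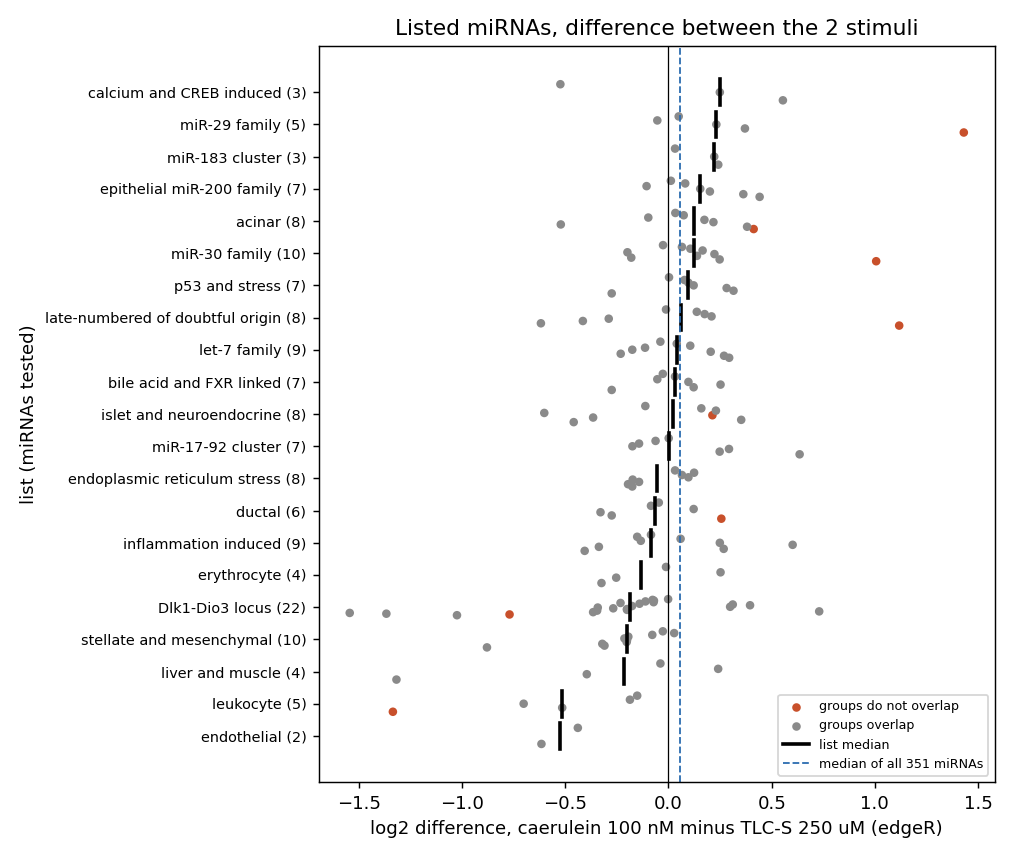
Each point is the log2 difference of caerulein 100 nM and TLC-S 250 uM (horizontal axis) of a tested miRNA in the list named at the left, with the number tested in parentheses; black bars are list medians, the dashed line the median of all 351 miRNAs (0.06), and orange points miRNAs whose groups do not overlap. Medians run from -0.53 (endothelial, 2 miRNAs) to 0.25 (calcium and CREB induced, 3 miRNAs), and most points lie within 0.5 of 0.

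Lists tied to the signals that the 2 agents are known for, and to stress and inflammation, had medians from -0.08 to 0.25. The bile acid and FXR linked list, FXR being the nuclear receptor for bile acids, had 4 members higher and 3 lower (median 0.03), with miR-22-3p at 0.03 and miR-34a-5p at 0.10, and its median turned to -0.13 without caerulein replicate 1. In the calcium and CREB induced list, miR-132-3p gave 0.25 (interval -0.43 to 0.92), miR-132-5p 0.55 and miR-212-3p -0.52. All had group means under 50 CPM with caerulein and with TLC-S. The median of this list ranged from 0.05 without caerulein replicate 3 to 0.40 without TLC-S replicate 3. The endoplasmic reticulum stress list was even (4 and 4, median -0.06), with medians from -0.17 without caerulein replicate 1 to 0.04 without TLC-S replicate 2. p53 and stress miRNAs were 6 higher and 1 lower (median 0.10). Without caerulein replicate 1 they were 3 higher and 4 lower, with a median of -0.05, and without TLC-S replicate 3 the median was 0.25. Inflammation induced miRNAs were 4 higher and 5 lower (median -0.08), with miR-146a-5p at -0.13 and miR-221-3p at -0.41, and became 6 higher and 3 lower (median 0.05) without TLC-S replicate 3.

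In the let-7 family, known for restraining growth genes, all 9 tested members had an interval within a doubling or halving, and the median was 0.04 (-0.08 without TLC-S replicate 2, 0.14 without TLC-S replicate 1). The miR-30 family (7 of 10 higher, median 0.12) and the miR-29 family (4 of 5 higher, median 0.23) held miR-30d-3p at 1.01 and miR-29a-5p at 1.43 as their highest members, both minor strands under 20 CPM. The miR-30 median was 0.05 without TLC-S replicate 1 or caerulein replicate 2, while that of miR-29 was 0.04 without caerulein replicate 1, 0.05 without TLC-S replicate 3 and 0.40 without TLC-S replicate 2. The miR-17-92 cluster had a median of 0.00, from -0.17 without TLC-S replicate 3 to 0.25 without TLC-S replicate 1. The 22 tested miRNAs of the imprinted Dlk1-Dio3 locus summed to 480 to 731 CPM with caerulein and 509 to 858 with TLC-S. Of these, 18 were lower (median -0.19), beside 42.7% of all miRNAs tested. Without TLC-S replicate 2 this was 12 of 22 with a median of -0.02, without caerulein replicate 1 it was 15 with -0.06, and without caerulein replicate 3 the median was -0.47. Of the locus, miR-154-3p, miR-323-3p and miR-543-3p were at 0 in all 6 libraries.

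Summing counts over miRNAs with the same seed gave 246 families, of which 40 had several tested members. Only miRNAs with a matched sequence entered, among them 312 of the 351 tested. Those left out include miR-126a-5p and miR-129-1-3p of the 8 with the smallest p, and also miR-375-3p and miR-30b-5p. None passed in edgeR (0 of 246, 0%), 6 had an unadjusted p under 0.05 (2.44%), and the smallest adjusted p was 0.143, for the seed GAAUCCC of miR-3968. Each of those 6 was a family with 1 tested member, namely the 6 miRNAs printed first above, and 0 of the 40 larger families were among them. The larger families ran from -0.56 for miR-148a-3p, miR-148b-3p and miR-152-3p to 0.69 for miR-190a-5p and miR-190b-5p, and 36 of the 40 had an interval within -1 to 1.

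The balance of the 2 strands of a hairpin, which does not depend on scaling between libraries, could be compared for 89 hairpins. limma on log2 of the 3p over the 5p count called 0 (0%), with 3 at an unadjusted p under 0.05 (3.37%) and 9 whose groups did not overlap (10.1%). The hairpin of miR-322 had the smallest p. Its log2 ratio was 0.51, 1.58 and -0.35 with caerulein and -1.42, -0.57 and -0.59 with TLC-S, a difference of 1.44 (SE 0.48, limma adjusted p = 0.80). The ratio of let-7b differed by 0.77 (SE 0.30) and that of miR-29a by -1.86 (SE 0.80), the hairpin whose 5p strand is described above. The miR-29a ratios were 10.2, 8.58 and 9.01 with caerulein and 13.1, 9.99 and 10.3 with TLC-S, which overlap. The value of 13.1, from TLC-S replicate 1, rests on 1 count of the 5p strand. Across the 312 miRNAs with a sequence, the log2 difference had a Spearman rho of 0.07 with GC content and -0.09 with length. These miRNAs share the same 6 libraries and are not independent.

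The same 2 agents at their low doses shared no library with this comparison and gave more calls. Caerulein at 100 pM against TLC-S at 62.5 uM had 5 miRNAs past the adjusted threshold (1.42% of 351), 4 higher and 1 lower with caerulein, and 48 at an unadjusted p under 0.05 (13.7%). miR-3968 read 66.0, 70.8 and 55.2 CPM with caerulein and 11.6, 11.7 and 10.3 with TLC-S, a log2 difference of 2.51 (SE 0.31, edgeR adjusted p = 5.36e-06). Its levels with caerulein overlapped between the 2 caerulein doses, whereas its levels with TLC-S did not overlap between the 2 TLC-S doses. miR-30b-5p read 2186, 2240 and 3520 CPM with caerulein and 596, 1026 and 792 with TLC-S, a difference of 1.72 (SE 0.33, edgeR adjusted p = 0.0032). The controls, at 1540, 1332 and 3880 CPM, covered the caerulein libraries and lay above all TLC-S libraries. At the high doses it read 2247, 2700 and 2197 CPM against 2469, 1736 and 2163, a difference of 0.17 (interval -0.49 to 0.82). The other calls were the acinar miR-216a-3p (1.22, SE 0.29), miR-5099 (1.12, SE 0.29) and, on the lower side, miR-195a-5p of the growth-restraining miR-15 and miR-16 family (-1.34, SE 0.33). At the high doses these gave 0.38, -0.04 and -0.32. The count of 5 went down to 2 without TLC-S 62.5 uM replicate 2 or caerulein 100 pM replicate 3 and up to 11 without caerulein 100 pM replicate 1. It was 3 without TLC-S 62.5 uM replicate 1 or caerulein 100 pM replicate 2, and 10 without TLC-S 62.5 uM replicate 3. miR-3968 and miR-30b-5p were called in each of these.

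Whether the difference between the agents depended on dose was tested in the same model. edgeR called 0 of 351 miRNAs (0%), DESeq2 also called 0, and 18 (5.13%) had an unadjusted p under 0.05 in edgeR. The strongest were miR-30b-5p, whose difference was lower by 1.55 on the log2 scale at the high doses (-1.55, SE 0.45), and miR-3968 (-1.39, SE 0.41), both with an edgeR adjusted p of 0.414. Without the filter on low counts, edgeR called miR-30b-5p in this test. With the filter, none of the 5 calls of the low doses is shown to differ from its value at the high doses. All 8 acinar miRNAs were higher with caerulein at the low doses (median 0.72), beside 6 of 8 and 0.12 at the high doses. The low-dose endothelial median was 0.17, with both strands higher, and the leukocyte median -0.10, with 2 of 5 higher. For the stellate and mesenchymal list it was -0.24, with 1 of 10 higher. The low-dose median of the Dlk1-Dio3 locus was -0.36, with 5 of 22 higher. Erythrocyte and liver and muscle medians were -0.03 and -0.02. Scaling by library totals alone moved the median of all miRNAs to -0.34 at the low doses and left it at 0.06 at the high doses.

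**Figure D4:**
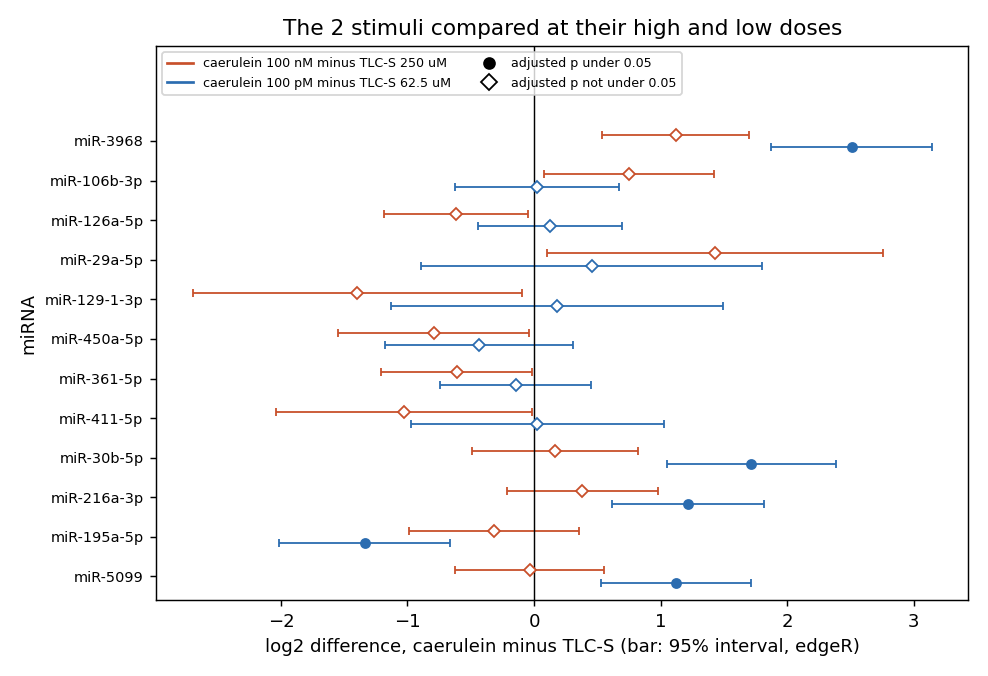
Log2 differences of caerulein and TLC-S (horizontal axis, bars are 95% intervals from edgeR) at the high doses (orange) and the low doses (blue) for the 8 miRNAs with the smallest p at the high doses and 4 further ones called at the low doses; filled circles mark an adjusted p under 0.05. All 5 filled circles are at the low doses, and miR-3968 lies above 0 at both.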

How the data were processed

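Estimated counts (expected counts) per mature miRNA were deposited by the authors as whole numbers. Each lay within 0.5 of the sum over the deposited counts of its precursors, of which 74.0% of values above 0 were whole, so reads of near-identical miRNAs may be divided between them. The submitters' processing notes name cutadapt, Bowtie, GRCm38 and mm10; versions and the counting tool were not given in the sources used here.

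Groups were read from the sample titles. The titles give a library code and no replicate number, so replicates were numbered here in the order of those codes. The 15 libraries were fitted together with 1 mean for each of the 5 groups (10 residual degrees of freedom). edgeR 4.0.16 in R 4.3.3 was used with filterByExpr (at least 10 counts, 15 in all), TMM, glmQLFit and glmQLFTest, with Benjamini-Hochberg adjustment over 351 miRNAs at 0.05. Libraries outside a comparison add only to the filter on low counts, the scaling and the estimate of the spread (biological coefficient of variation 0.285). Counts of miRNAs with the same seed were summed and refitted. Strand ratios, with 0.5 added to each count, were fitted in limma 3.58.1. Alternatives were DESeq2 1.42.0, other scalings and filters, robust dispersion, a replicate block, a fit of the compared groups alone and each library left out. Scripts were tested on simulated data. Sequences were matched by name to RefSeq (1623 of 1915 miRNAs), and positions come from GRCm38 with GENCODE M21. Reads carried no molecule tags, so depth speaks of counting error alone.

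The text names the 20 miRNAs with the smallest p, all calls, both strands of miR-21a, the 5 most abundant miRNAs and at most 4 abundant miRNAs of a list. Outside that rule, list members at 0, other strands of a named hairpin or cluster, miR-30d-3p and some small list members were named after their values were seen. The comparison and the lists were chosen with earlier results of these data known.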

Additional observations from a re-analysis of the deposited data

How the results depend on the processing

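The count of 0 for caerulein 100 nM against TLC-S 250 uM held under 14 of 15 alternatives and was 1 with DESeq2 (miR-3968, log2 difference 1.10), with 0 to 0 as single libraries were left out. Seed families and strand ratios stayed at 0 under every alternative run. The low-dose count of 5 was 9 without the filter on low counts, 10 with DESeq2, 14 with the replicate block and 2 with only the groups compared, and 2 to 11 as single libraries were left out. The test of dose dependence gave 1 (miR-30b-5p) without the filter. miR-21a-3p reversed to -0.61 without caerulein 100 nM replicate 3, miR-200a-3p to -0.14 without caerulein replicate 1, and let-7i-5p to -0.076 without TLC-S replicate 1 and -0.02 without caerulein replicate 2. As single libraries were left out, miR-21a-3p ranged from -0.61 to 1.10, miR-200a-3p from -0.14 to 0.32 and let-7i-5p from -0.076 to 0.11. The cause was not tested. Same-numbered libraries of the 2 groups had deviations correlated at 0.26, 0.01 and 0.26, and differently numbered ones at -0.34 to 0.09. The main model did not pair libraries by number, and whether the numbers mark shared preparations is not stated. With the replicate block 0 miRNAs were called at the high doses. None of the 76 miRNAs under 10 CPM was bounded within a doubling. The shares of counting error and of other spread between libraries in that width were not tested. The shallowest library was caerulein 100 nM replicate 2, with 535473 counts.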
